A study of Mus musculus with 4 samples.

Results

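The genes described here encode factors that skeletal muscle secretes, often called myokines: Il6, Il15, Lif, Fndc5, Metrnl, Fgf21, Bdnf, Vegfa and Vegfb. These 9 genes were taken by symbol from the 21755 genes annotated as protein-coding outside the Y and mitochondrial chromosomes. The study measured H3K4me3, histone H3 trimethylated at lysine 4, by chromatin immunoprecipitation sequencing in the gastrocnemius, a calf muscle. The mice behind all 4 libraries were B6CASTF1/J females, adult at 2 months of age and with no treatment named. B6CASTF1/J is the F1 cross of C57BL/6J and CAST/EiJ. Pool E (biological replicate 1) and pool F (biological replicate 2) each combined 2 biosamples, and each gave 2 technical libraries. Each pool mixes its biosamples, so the spread between single mice was not measured. No condition was compared, and the comparison made here is between genes: factors that resting muscle expresses (steady: Il15, Fndc5, Metrnl, Vegfa, Vegfb) and factors known to rise with contraction, stress or injury (inducible: Il6, Lif, Fgf21, Bdnf). These classes rest on textbook knowledge and are not exclusive, since Fndc5 and Metrnl are also described in exercising muscle.

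H3K4me3 marks the start sites of genes that are transcribed or held ready for transcription, and promoters rich in CpG dinucleotides carry it in most tissues. Promoters poor in CpG tend to carry it where the gene is active. Secreted muscle factors act on the fibre itself, on vessels, nerves, immune cells and fat, and several of them are made by more than 1 cell type of the tissue. In a whole muscle, a mark on few nuclei and a weak mark on many cannot be told apart.

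Promoters of 5 genes are shown. Fndc5, Vegfb and Bdnf had peak values of 37.9, 36.2 and 36.8 in the replicated list, below the median of 45.2 over marked genes. Il6 had a weaker peak and Fgf21 none. Bdnf is shown at separate start sites because these differed. Where a Bdnf or Lif peak is called strong, this is beside weaker peaks of the same gene. Each sequence is the 250 bases upstream of a RefSeq start site, 5′ to 3′ on the gene's strand, from the RefSeq table for GRCm38.p6. Capitals mark CpG dinucleotides. The table held 8 of the 9 genes, and Il15 had no entry.
Fndc5, chr4:129136749-129136998, plus strand: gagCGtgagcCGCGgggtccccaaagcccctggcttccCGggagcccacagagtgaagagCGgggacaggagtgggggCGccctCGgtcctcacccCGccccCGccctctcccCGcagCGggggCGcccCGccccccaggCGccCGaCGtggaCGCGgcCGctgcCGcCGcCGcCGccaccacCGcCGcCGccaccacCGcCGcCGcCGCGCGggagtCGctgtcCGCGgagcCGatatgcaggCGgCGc
Vegfb, chr19:6987652-6987901, minus strand: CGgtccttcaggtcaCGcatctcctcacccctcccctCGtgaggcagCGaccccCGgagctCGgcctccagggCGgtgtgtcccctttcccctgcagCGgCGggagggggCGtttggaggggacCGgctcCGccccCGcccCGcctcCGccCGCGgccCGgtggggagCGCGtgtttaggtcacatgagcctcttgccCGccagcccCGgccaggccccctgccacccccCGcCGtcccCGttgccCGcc
Bdnf, start under the strong peak, chr2:109692186-109692435, plus strand: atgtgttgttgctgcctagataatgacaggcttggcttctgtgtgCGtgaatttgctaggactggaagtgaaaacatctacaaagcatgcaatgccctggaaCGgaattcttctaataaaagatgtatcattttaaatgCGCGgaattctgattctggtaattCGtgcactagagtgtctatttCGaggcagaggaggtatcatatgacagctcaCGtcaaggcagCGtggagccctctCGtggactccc
Bdnf, start far from any peak, chr2:109709133-109709382, plus strand: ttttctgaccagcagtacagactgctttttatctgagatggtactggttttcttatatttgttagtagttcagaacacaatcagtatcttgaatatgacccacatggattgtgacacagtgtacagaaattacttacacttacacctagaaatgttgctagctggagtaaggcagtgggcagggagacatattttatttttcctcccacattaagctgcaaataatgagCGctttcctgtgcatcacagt
Il6, chr5:30012864-30013113, plus strand: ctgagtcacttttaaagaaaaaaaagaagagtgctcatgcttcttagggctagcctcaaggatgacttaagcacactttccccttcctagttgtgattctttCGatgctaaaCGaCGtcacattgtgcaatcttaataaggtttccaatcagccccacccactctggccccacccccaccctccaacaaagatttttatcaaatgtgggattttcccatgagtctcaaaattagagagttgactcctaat
Fgf21, chr7:45615491-45615740, minus strand: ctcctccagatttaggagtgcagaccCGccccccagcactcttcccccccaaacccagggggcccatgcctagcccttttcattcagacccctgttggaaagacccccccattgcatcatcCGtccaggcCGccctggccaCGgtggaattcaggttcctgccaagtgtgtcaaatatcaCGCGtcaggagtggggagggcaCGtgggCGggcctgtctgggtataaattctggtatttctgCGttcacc
The Fndc5 window holds 38 CpGs and the Vegfb window 26, against a median of 6 over 32619 promoters (interquartile range 2 to 16). Of the genes not printed, the Metrnl window holds 20, the Lif window 6, and the Vegfa windows 11 and 7. The printed Bdnf window under the peak holds 9 CpGs and the printed one far from any peak holds 1. Other Bdnf windows were not printed. Under the same peak, those of the starts at 109693027 and 109694409 hold 8 and 13. The window of the start at 109722921, 27557 bp from a peak, holds 7. Those of the starts at 109674700 and 109677032, near weak peaks, hold 9 and 4. Il6 has 3 CpGs. Fgf21 has 9, as many as the printed Bdnf window under the peak.

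The peak lists placed H3K4me3 at the start of 8 of the 9 genes (88.9%), and Fgf21 was the exception. A gene was called marked when at least 1 deposited peak came within 1000 bp of an annotated transcription start site (TSS). In the replicated list, named as deposited, 69.3% of all protein-coding genes were marked. It marked 15067 genes, more than the 14984 of the pool F list. Signal values of the 8 marked factors are the same in it and in the pooled list, so the pooled list gives no separate value for them. The same 8 genes were marked in pool E, where 69.3% of all genes were, in pool F, where 68.9% were, and in the pooled list, where 69.5% were. The median of the highest signal value was 37.3 over the 8 marked factors and 45.2 over all 15067 marked genes. The signal value is the authors' own number for each peak, its reference is not stated, and it is read here only within a list. The H3K4me3 domain, formed by joining peaks up to 1000 bp apart, had a median width of 3231.5 bp over the marked factors and 2400 bp over all marked genes. Of the 41 TSSs annotated to the 9 genes, 30 lay within 1000 bp of a peak. All 10 peaks there had their summit nearest to a TSS of that factor rather than of another gene.

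Marker genes of cell types were looked up in the replicated list. All 6 muscle fibre markers were marked (signal 23.2 to 58.8), as were 4 of 4 endothelial markers (25.5 to 38.0) and 4 of 4 markers of fibro-adipogenic cells (17.3 to 41.0). Macrophage markers were marked weakly in 4 of 4 (4.98 to 8.02), but only 1 of them had a peak overlapping its TSS. None of 4 lymphocyte and none of 4 hepatocyte markers had a peak, and 2 of 4 neuronal markers did (7.45 and 10.02). Over all protein-coding genes 69.3% were marked. All macrophage, lymphocyte and hepatocyte markers are in the low CpG class (defined below), where 25.2% of genes were marked. So are 4 of 6 fibre, 3 of 4 endothelial and 1 of 4 fibro-adipogenic markers. Of the neuronal markers 1 is in the high and 3 in the intermediate class, with 99.3% and 93.9% of genes marked. Sequencing depth is unknown, since no list gives counts.

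**Figure D1:**
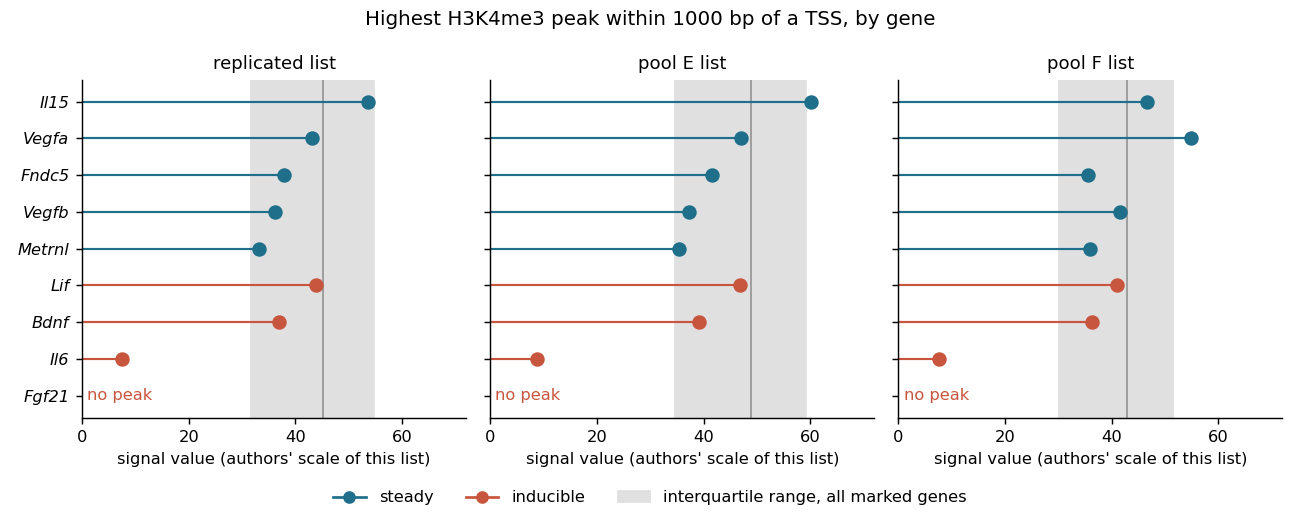
Signal value of the highest H3K4me3 peak within 1000 bp of a TSS (x axis, the authors' scale of each list) for each gene, in the replicated, pool E and pool F lists. Blue points are steady factors and red points inducible ones, the band is the interquartile range of all marked genes and the line in it their median. Il6 lies far left of the band in each panel, and Fgf21 has no peak.

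Among the steady factors, Il15 had the highest signal value in the replicated list and in pool E, and Vegfa had it in pool F. Interleukin-15 sustains natural killer cells and memory T cells, and skeletal muscle contains much of its mRNA. The gene lies on the minus strand at chr8:82331632-82403222 in mm10. Its peak value was 53.6 in the replicated list, 60.04 in pool E and 46.5 in pool F. The replicated value stood at the 70.9th percentile of all marked genes, and the values of both pools also lay above their own list's median. The peak, chr8:82399969-82403688, covered 6 of the 9 annotated TSSs, with 1122 bp of exons and 2132 bp of introns. The remaining 3 TSSs lay 1342, 54286 and 55496 bp from it.

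Il15 combined this strong mark with a CpG-poor start. Its highest ratio of observed to expected CpGs at a TSS was 0.349, which puts it in the low class (below 0.48 at every TSS). Among the 8350 genes of that class, 25.2% were marked, and the Il15 signal stood at the 96.3rd percentile of those marked. Il6 had the same highest ratio, 0.349, and stood at the 25.8th percentile of the same class.

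Vegfa and Vegfb differed from each other in width more than in signal. Vegfa encodes the main growth factor for capillaries, which muscle fibres secrete, and Vegfb encodes a relative that binds the receptor Flt1 and is abundant in oxidative tissues. Vegfa (chr17:46016993-46032369, minus strand) had peak values of 43.1 in the replicated list, 47.1 in pool E and 54.8 in pool F. Vegfb (chr19:6982473-6987651, minus strand) had 36.2 in the replicated list, 37.2 in pool E and 41.6 in pool F. The Vegfa value was the higher of this pair in each list.

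The Vegfa domain was 7371 bp wide in the replicated list, 8371 bp with pool E and 7384 bp with pool F, at the 95.3rd percentile of all marked genes in the replicated list. It ran 1898 bp upstream and 5472 bp downstream of the TSS nearest its summit, against medians of 816 and 1303 bp over all marked genes. The downstream reach was at the 98.0th percentile, and 42.2% of the gene lay under the peak. Genes of the high CpG class, to which Vegfa belongs, had a median width of 2792 bp, and Vegfa stood at the 95.2nd percentile among them. Its signal in the replicated list stood at the 27.6th percentile of that class.

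The pools placed the Vegfa summit differently. It lay 21 bp downstream of a TSS in pool E and 580 bp downstream of one in pool F. The signal stood at the 45.1st percentile of marked genes in pool E and at the 87.2nd percentile in pool F. The peak covered 4 of the 8 annotated TSSs, and 3 of the others lay 1003, 1020 and 1082 bp beyond its end, just outside the window. In pool E a separate peak of 258 bp with a signal of 3.55 covered 2 of those 3 TSSs and ended 50 bp from the other, and pool F had no peak overlapping it. The pooled list had a peak of 293 bp with a signal of 2.63 within 1000 bp of them.

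The Vegfb domain was 1953 bp wide in the replicated list, 1987 bp with pool E and 1938 bp with pool F. This was narrower than the median marked gene in each list. It covered all 3 annotated TSSs. From the TSS nearest its summit, at 6987140, it reached 1213 bp upstream and 739 bp downstream. The other TSSs, at 6987629 and 6987651, lie upstream of that one, and from them the domain reached further downstream than upstream. Its −log10 q-value of 302 stood at the 41.5th percentile of marked genes, above its signal at the 32.0th.

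Fndc5 encodes the membrane protein from which irisin is cleaved, a factor described in exercising muscle. The gene (chr4:129136999-129144593, plus strand) has 1 annotated TSS, in the CpG-dense sequence printed above. Its peak value was 37.9 in the replicated list, 41.7 in pool E and 35.5 in pool F. The domain was 1781 bp wide in the replicated list, 1789 bp with pool E and 1787 bp with pool F. Its width stood at the 26.6th percentile of marked genes and its signal at the 34.6th, so the start was marked narrowly and with less than median height. The summit lay 242 bp upstream of the TSS, whereas the median marked gene had its summit 123 bp downstream.

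Metrnl encodes a secreted protein related to meteorin that is described in exercised muscle and in fat. The gene (chr11:121701544-121716306, plus strand) had peak values of 33.1 in the replicated list, 35.4 in pool E and 36.0 in pool F. This was the lowest signal of the steady factors in the replicated list and in pool E, and in pool F Fndc5 was lower still. Its domain was nevertheless wide, at 5437 bp in the replicated list, 5509 bp with pool E and 5389 bp with pool F, the 90.0th percentile of marked genes in the replicated list. The highest peak alone spanned 3786 bp and covered all 3 TSSs. The rest came from weak intronic peaks downstream, with signals of 2.44 and 3.74 in the replicated list, 5.14 in pool E, and 3.63 and 4.15 in pool F.

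Among the inducible factors, Lif had the highest signal value in every list. Leukaemia inhibitory factor belongs to the interleukin-6 family, acts through Lifr and Il6st, and stimulates muscle precursor cells. The gene (chr11:4257557-4272514, plus strand) had peak values of 43.8 in the replicated list, 46.8 in pool E and 41.0 in pool F. All 3 values lay just below the median of marked genes in their list. The strong peak, chr11:4265117-4267543, covered the 2 downstream TSSs, and the most upstream TSS lay 1148 bp from the nearest peak. The domain was 3285 bp wide in the replicated list and 3274 bp in pool E, but 1552 bp in pool F, where the gap to the next peak exceeded the joining distance.

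Lif also carried peaks inside the gene, over 1000 bp from any of its TSSs. In the replicated list, 2 of the 9 genes had such a peak (22.2%), Lif with 4 and Metrnl with 2, and 27.7% of all protein-coding genes had one. The Lif gene-body peaks had signals of 11.7, 4.22, 10.2 and 4.79 in the order of transcription, and each was overlapped by a peak of each pool. The first 3 were intronic. The first lay 1148 bp from a TSS, just outside the window. The third, chr11:4264259-4265013, is also part of the 3285 bp domain of the strong peak. The last, 570 bp long, lay wholly in exonic sequence, and its summit was nearest to a TSS of the annotated gene Gm11959, 2947 bp away. Peaks covered 31.4% of the Lif gene.

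Bdnf encodes brain-derived neurotrophic factor, a ligand of Ntrk2 that contraction raises in muscle and that is transcribed from many alternative promoters. The gene (chr2:109674700-109727007, plus strand) has 9 annotated TSSs, and 7 lay within 1000 bp of a peak. A strong peak, chr2:109692187-109695364, covered 5 of them, with values of 36.8 in the replicated list, 39.1 in pool E and 36.2 in pool F. A weak peak 217 bp upstream of the first TSS had a signal of 6.78 in the replicated list, 8.35 in pool E and 6.02 in pool F. Another, 149 bp downstream of the TSS at 109677032, had 10.9 in the replicated list, 13.0 in pool E and 10.3 in pool F. The promoters of Bdnf were thus marked unequally, and both pools gave the same order of the 3 peaks. The weak peaks also lay within 1000 bp of TSSs of Gm20638 and of Gm45346, and each summit was nearest to Bdnf.

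The unmarked TSSs of Bdnf were at 109675897, 1284 bp from a peak, and at 109709383, 14019 bp from one. The start at 109709383 is the one whose upstream sequence, printed above, holds 1 CpG. The strong peak was 3178 bp wide in the replicated list, 3246 bp with pool E and 3151 bp with pool F, at the 69.1st percentile of marked genes in the replicated list.

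**Figure D2:**
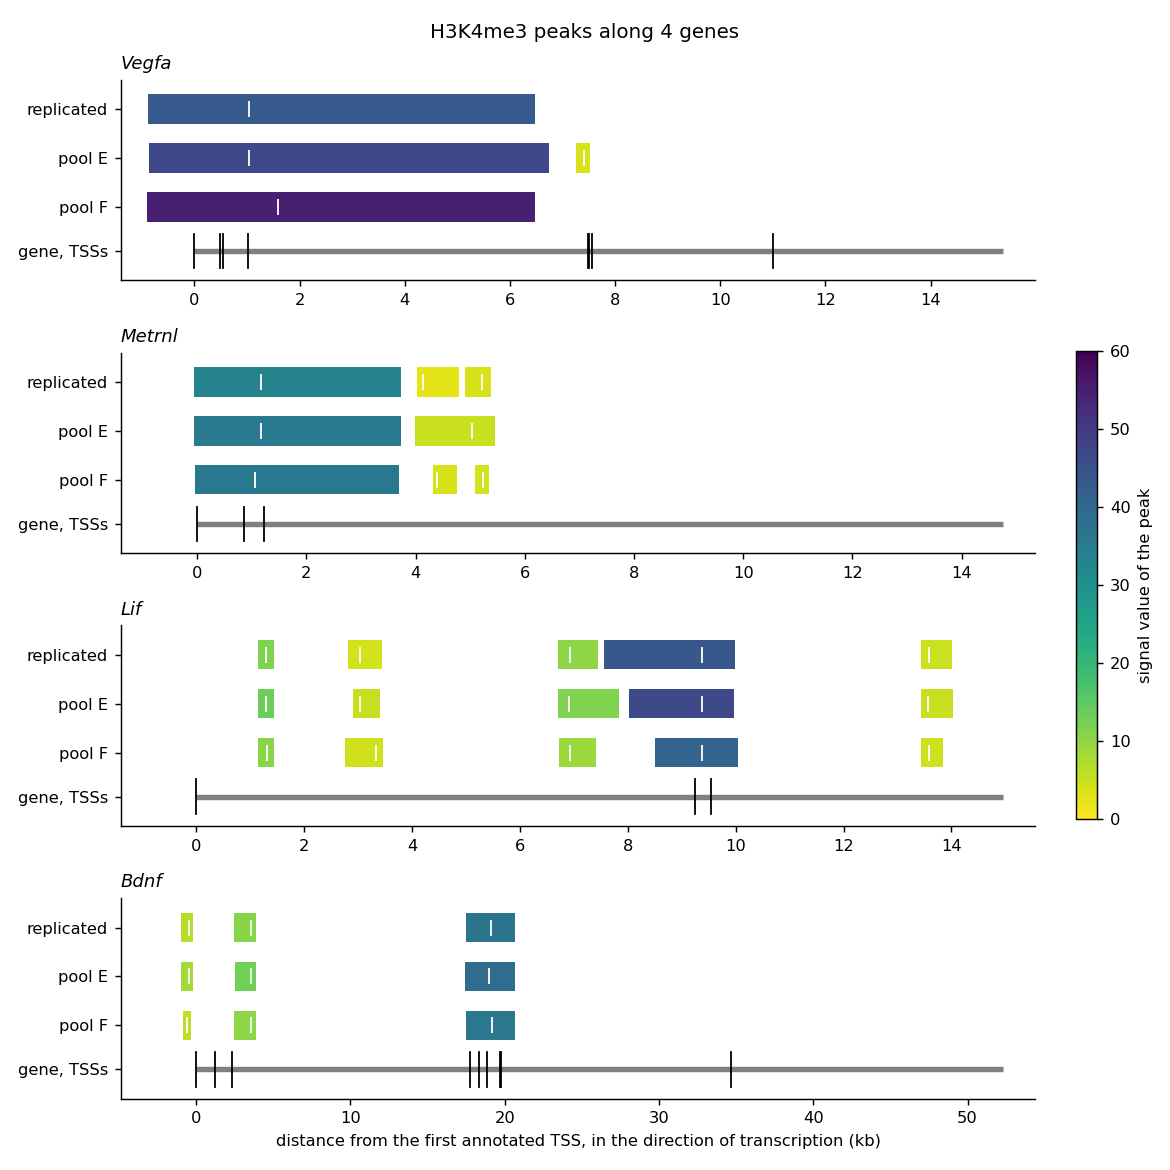
H3K4me3 peaks along Vegfa, Metrnl, Lif and Bdnf, as distance in kb from the first annotated TSS in the direction of transcription. Each bar is a peak of the named list, coloured by its signal value, a white tick is its summit, the grey line is the gene and the black ticks are its TSSs. In these 3 lists Vegfa has a single broad peak apart from the small one in pool E, and Bdnf has 3 separate peaks in every list.

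Il6 encodes interleukin-6, the cytokine that contracting muscle releases into the blood and that signals through Il6ra and Il6st. The gene (chr5:30013114-30019981, plus strand) had the weakest mark of the 8 marked factors. Its peak value was 7.57 in the replicated list, 8.75 in pool E and 7.73 in pool F. The domain was 792 bp wide in the replicated list, 751 bp with pool E and 837 bp with pool F. Signal and width stood at the 5.57th and the 4.95th percentile of marked genes, with a −log10 q-value of 20.6. The peak, chr5:30012830-30013621, covered all 4 TSSs and had its summit 21 bp downstream of one. Signals of the 4 macrophage markers ran from 4.98 to 8.02 in the replicated list, from 4.13 to 6.64 in pool E and from 4.998 to 8.75 in pool F. Il6 lay within that range in the replicated list and pool F and above it in pool E. The 2 marked neuronal markers of the replicated list had 7.45 and 10.02. The part of either cell type in the Il6 value was not tested.

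Fgf21 encodes a hormone of the fibroblast growth factor family that the liver secretes in fasting and that muscle secretes under mitochondrial stress. The gene (chr7:45613886-45615490, minus strand) has 1 annotated TSS and had no peak within 1000 bp of it or over the gene in any list. The nearest peak was 11135 bp upstream in the replicated list, 11142 bp with pool E and 11179 bp with pool F. That peak had a signal of 49.3 in the replicated list, and its summit was nearest to a TSS of Rasip1, a regulator of vessel formation. The neighbours Fut1 and Izumo1, both of the low CpG class, were also unmarked. Fut1 lies between Fgf21 and that peak, and the peak begins inside Izumo1, over 1000 bp from its TSSs. On the other side of Fgf21, Bcat2, of the intermediate class, was marked (54.5). Fgf21 belongs to the low CpG class, with a ratio of 0.242.

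Set side by side, all 5 steady factors and 3 of the 4 inducible factors were marked, and the values of those marked overlapped. The median signal was 37.9 for the steady factors (range 33.1 to 53.6) and 36.8 for the marked inducible factors (7.57 to 43.8) in the replicated list. In pool E the medians were 41.7 for the steady and 39.1 for the inducible factors, and in pool F 41.6 for the steady and 36.2 for the inducible. The median domain width was 3720 bp for the steady factors (1781 to 7371 bp) and 3178 bp for the inducible ones (792 to 3285 bp) in the replicated list. In pool E these medians were 3785 bp for the steady and 3246 bp for the inducible factors, and in pool F 3411 bp for the steady and 1552 bp for the inducible. With 5 and 4 genes that are not replicates of a condition, no test was made. The sign of the median difference, 1.05 signal units and 542 bp, depended on where single genes were placed. With Vegfa counted as inducible the differences were −2.95 and −395 bp.

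The inducible class was split within itself. Lif and Bdnf had signals of 43.8 and 36.8, inside the range of the steady factors, while Il6 had 7.57 and Fgf21 no peak. CpG class was measured from sequence alone, and its part in these differences was not tested. Lif and Bdnf were in the intermediate class, with ratios of 0.71 and 0.676, and so were Fndc5, Metrnl and Vegfb. Il6 and Fgf21 were in the low class, as was the strongly marked Il15. Over all genes, 99.3% of the high, 93.9% of the intermediate and 25.2% of the low class were marked.

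**Figure D3:**
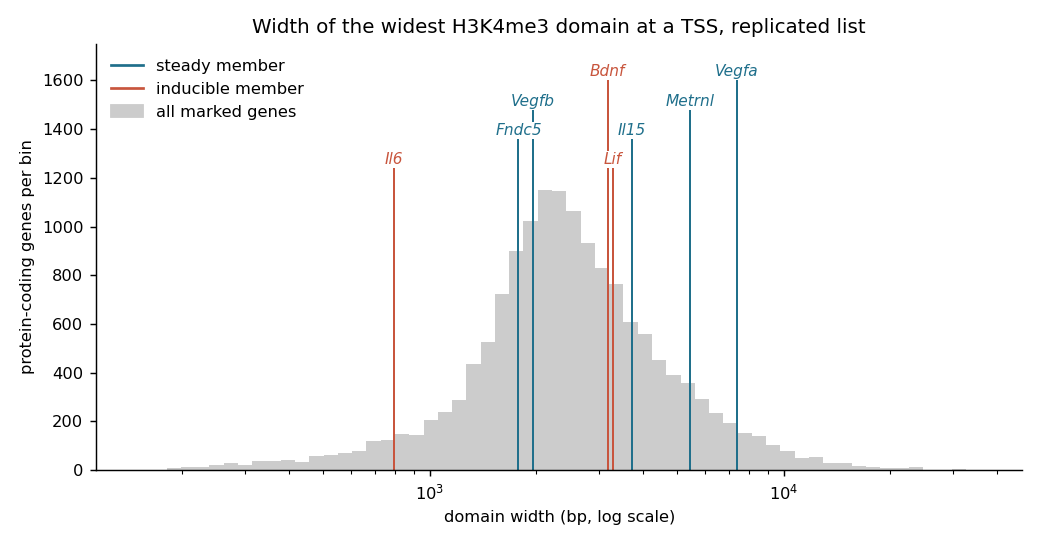
Histogram of the width of the widest H3K4me3 domain at a TSS over all 15067 marked genes of the replicated list (x axis, bp on a log scale, y axis, genes per bin), with lines at the 8 marked factors. Blue lines are steady and red lines inducible factors. Vegfa and Metrnl lie in the right tail and Il6 in the left.

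**Figure D4:**
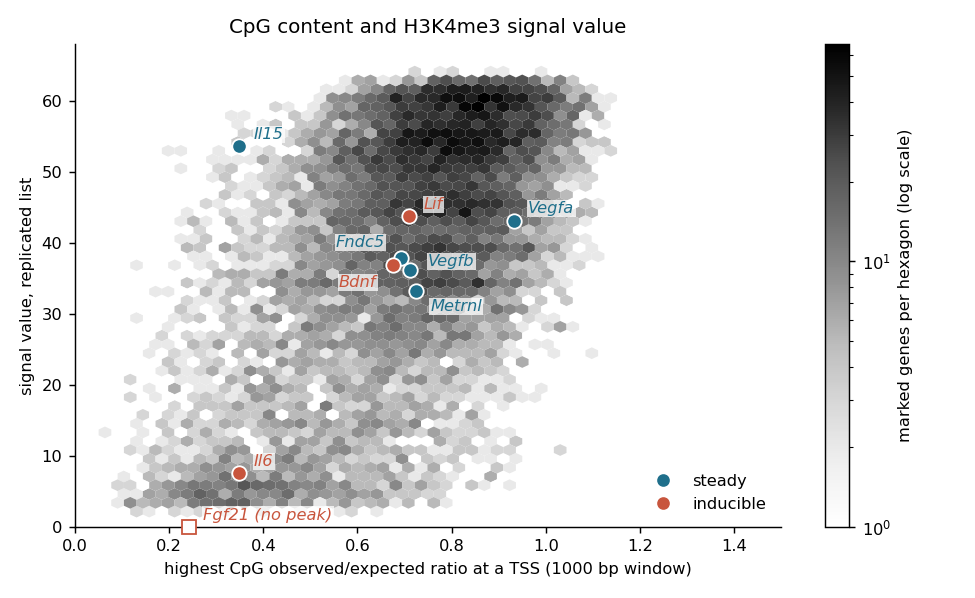
Signal value in the replicated list (y axis) against the highest CpG observed over expected ratio at any TSS in windows of 1000 bp (x axis), with marked genes as hexagons shaded by their number on a log scale. Blue points are steady and red points inducible factors, and the open square is Fgf21, which has no peak. Il15 and Il6 share a ratio of 0.349 and have signals of 53.6 and 7.57.

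Motifs were searched on both strands of the printed windows and the other RefSeq windows, 15 in all. The Fgf21 window holds TATAAA starting at −28 from the TSS, a match found in 12.4% of all promoters, and none of the other 14 windows holds it. The Fgf21 window also holds CACGTG at −50, which matches CANNTG (66.2% of promoters) and, on both strands and overlapping it, ACGTG, the core of the hypoxia response element (16.7%). The Il6 window holds CCAAT at −106 (34.0% of promoters) and, on the opposite strand at −249, TGACTCA, the AP-1 motif (4.48%). TGACTCA is also in the Lif window, at −228, and CCAAT is in both Vegfa windows. The Fndc5 window holds ACGTG at −104, and the printed Bdnf window under the peak holds it on the opposite strand at −37. ACGTG is also in the windows of the Bdnf start at 109674700 and the Vegfa start at 46025163. Among the 15 windows, TGACGTCA (1.56% of promoters), GGACTTTCC (0.285%) and TATTTTTA (2.37%) had no match. A match describes letters and not a bound site.

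Receptors and partners of these factors were mostly marked. Of 18 receptor genes, 9 are in the high, 7 in the intermediate and 2 in the low CpG class. Over all genes, 99.3% of the high, 93.9% of the intermediate and 25.2% of the low class were marked. Of the receptors, 16 were marked (88.9%, beside 69.3% of all genes), with a median signal of 34.9 and a median width of 4202 bp. The highest were Lifr, the Lif receptor (61.1), Il15ra, which presents interleukin-15 (60.2), Fgfr1, which binds Fgf21 (59.8), and Itgb5, an integrin subunit reported to bind irisin (59.6). Klb, the co-receptor that Fgf21 needs, and Il2rb, the signalling chain for interleukin-15, had no peak in any list. The receptors of the vessel growth factors, named here after their values were seen, carried wide domains, with 12702 bp at Flt1, 9379 bp at Kdr, 11815 bp at the co-receptor Nrp1 and 7407 bp at Nrp2. Their signals were 38.6 at Flt1, 30.7 at Kdr, 54.3 at Nrp1 and 31.2 at Nrp2. Kdr and Nrp2 lay within the range of the endothelial markers (25.5 to 38.0), and Flt1 and Nrp1 lay above it. Kdr, Nrp2 and Flt1 also lay within the range of the fibro-adipogenic markers, and all 4 within that of the fibre markers. The part of these cell types was not tested.

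Relatives of the same families differed from one list to another. Over all protein-coding genes, 69.3% were marked in the replicated list. In the interleukin-6 family 4 of 6 further genes were marked in the replicated list, Clcf1 (50.7), Ctf1 (33.6), Il11 (30.7) and Osm (5.55), and Cntf and Il27 were not, although Cntf had a weak peak in pool E (4.07). Osm, a cytokine of myeloid cells, had a weak peak like that of Il6. Of 5 further cytokines of the common gamma chain, which T cells and stromal cells make, Il7 was marked (47.3) and Il2, Il4, Il9 and Il21 were not. Those 4 are in the low CpG class, where 25.2% of all genes were marked. Among ligands of the vascular family, Vegfc (52.0), Pgf (18.8) and Vegfd (6.50) were marked, 3 of 3. Fgf15, an endocrine relative of Fgf21, was marked (21.1) and Fgf23, a bone hormone, was not.

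The neurotrophins Ntf3 (39.2) and Ntf5 (30.4) were marked. The relatives of Fndc5 and Metrnl, 3 of the high and 2 of the intermediate CpG class, were marked in 5 of 5. Fndc3a (54.3), Fndc3b (52.3), Fndc1 (44.2) and Metrn (43.3) were highest. Among 26 other factors that muscle secretes, 6 are in the high, 7 in the intermediate and 13 in the low CpG class. Of these 26, 22 were marked (84.6%, beside 69.3% of all genes). The highest were Nrg4, a neuregulin (55.2), Fstl1, a follistatin-like glycoprotein (52.8), Fst, the antagonist of myostatin (43.8), and Sparc, a matrix protein (41.2). In the replicated list the unmarked ones were Ccl2, Il10, Il1b and Ostn. Ostn, also called musclin, had a weak peak in pool E (2.80). All of the unmarked ones are in the low CpG class, where 25.2% of all genes were marked, and so is the marked Sparc. All 13 regulators, of which 8 are in the high and 4 in the intermediate CpG class, were marked. Nfkb1 (59.1), Creb1 (56.2), Hif1a (56.1) and Stat3 (55.6) were highest. These transcription factors respond to inflammation, cyclic AMP, low oxygen and cytokines in that order.

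**Figure D5:**
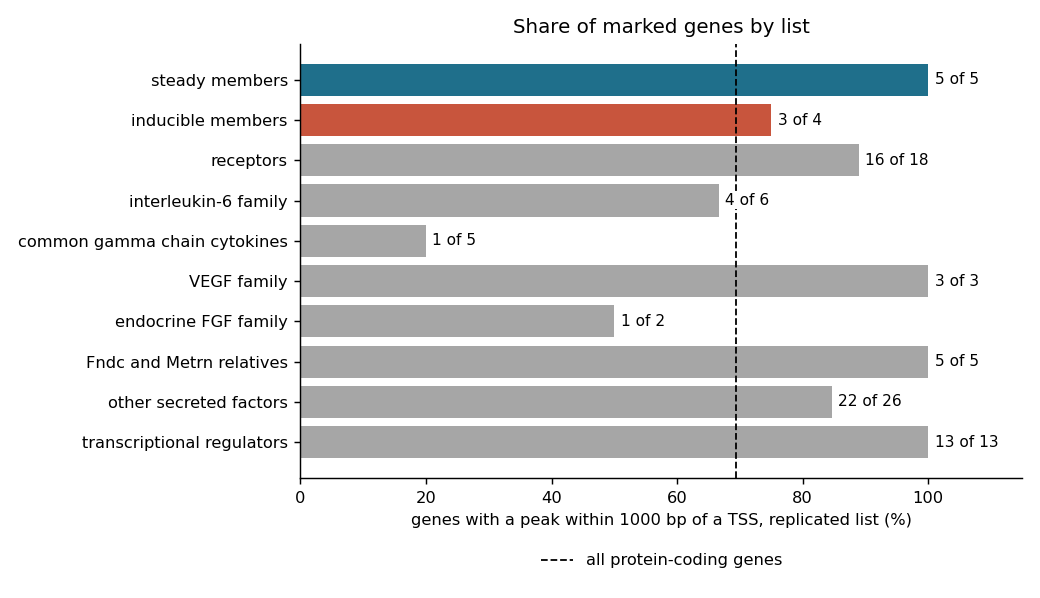
Share of genes with a peak within 1000 bp of a TSS in the replicated list (x axis, percent), for the steady and inducible factors and the lists of receptors, relatives, other secreted factors and regulators, with the numbers beside each bar. The dashed line is the share over all protein-coding genes, 69.3%. The common gamma chain cytokines are lowest, with 1 of 5.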

How the data were processed

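Per the labels, H3K4me3 ChIP-seq libraries (fragments of 200 to 600 bp) came from pool E and from pool F, with reads of both technical libraries in 1 alignment per pool. Deposited narrowPeak files, on mm10, gave replicated, pool E, pool F and pooled peaks. Each deposited peak has the authors' signal value, a −log10 q-value, a capped display score and a summit offset. The aligner, the peak caller and what the signal is relative to are not given in the sources used here. In the deposited replicated list 478 peaks had a q-value above 0.05.

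Peaks were set against GENCODE M21 TSSs with Python 3.11.15, numpy 2.4.6 and pandas 2.3.3, and figures drawn with matplotlib 3.10.9. The interval code was tested on simulated data. A gene's signal value is that of its highest peak within 1000 bp of a TSS, and its width that of the widest domain there. Percentiles are among marked genes of the same list. CpG classes used windows of 1000 bp: high, a ratio of at least 0.75 and GC of at least 55%, and low, ratios under 0.48 at all TSSs. The 9 genes, their classes, which rest on textbook knowledge, and the gene lists were chosen with earlier results of these data known. Named genes were all 9 factors, up to 4 highest marked and 4 unmarked genes of each list, and genes with a TSS near a peak of a factor. Alternatives changed the window, the joining distance, the peak filter, the list and the class of single genes. One gene of the lists is not reported here.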

Additional observations from a re-analysis of the deposited data

How the results depend on the processing

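No paired analysis was possible because no list holds a value per library. The count of marked factors was 8, and 7 when peaks with a signal below 7.64 were left out. That value is the median over all peaks of the replicated list, and the Il6 peak, at 7.57, lies just under it. The count of marked factors and the 30 of 41 TSSs within 1000 bp of a peak stayed within 1.5 times under the alternatives run. So did the counts of the gene lists, with the following exceptions. In the interleukin-6 family 2 genes were marked, against 4, when a peak had to overlap the TSS itself. Of the macrophage markers 1 was then marked, against 4. With a window of 2500 bp, 1 lymphocyte and 1 hepatocyte marker were marked, against none. The difference in median signal, steady minus inducible factors, was 1.05. It was −2.42 when peaks with a signal below 7.64 were left out. It was −2.95 with Vegfa and −3.27 with Il15 among the inducible factors, and 5.52 with Metrnl there. Leaving out a pool gave 2.56 (pool E alone) to 5.39 (pool F alone). The difference in median width was 542 bp, −395 bp with either Metrnl or Vegfa as inducible, and 539 to 1859 bp leaving out a pool. The median width over marked factors was 3231.5 bp, and 2544.5 to 3260 bp leaving out a pool. The low end of this width rests on pool F alone, where the Lif domain was 1552 bp. Depth is unknown, so the absence of a peak at Fgf21 is an absence from these lists.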
